A study of Bos taurus with 6 samples.

Results

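The genes described here are transcription factors of the trophoblast, the outer cell lineage of the early embryo that attaches to the uterus and builds the placenta, together with DAB2, an endocytic adaptor made in trophoblast, and PAG11, a secreted placental protein of cattle. They were taken by gene symbol from a table of 9537 genes measured in bovine blastocysts. Of the 9 symbols sought (CDX2, TEAD4, GATA3, GATA2, TFAP2C, TFAP2A, GCM1, DAB2 and PAG11), 8 had a row. TEAD4, the partner of YAP1 at the top of the trophectoderm programme, was not analysed here. The genes were selected on their CPM in the high and low cryosurvival libraries, with earlier results of that comparison known, so their differences between the groups are given as descriptions, and counts of calls among them support nothing.

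RNA was sequenced from bovine blastocysts made in vitro and grown in SOFaaci, a synthetic oviduct fluid medium. One group held 3 libraries of embryos with high survival after vitrification (freezing so fast that no ice crystals form), and the other held 3 libraries of embryos with low survival. No strain, genotype, age of the embryos or number of embryos per library was stated, and the titles also carry the codes V for high and NV for low without a meaning. Separate cultures or pools are not stated for the replicates, so the spread between them may be technical and p-values measure only that spread.

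In the mammalian blastocyst, cells on the outside switch on the trophectoderm programme while inner cells keep the pluripotency programme. Hippo signalling is off in the outer cells, which lets YAP1 enter the nucleus and act with TEAD4, and CDX2 and GATA3 are among the genes switched on. GATA2, GATA3, TFAP2A and TFAP2C then serve as a shared network of trophoblast regulators, and GCM1 drives the later step towards differentiated, fusing trophoblast. In ruminants the trophoblast also releases pregnancy-associated glycoproteins, the family to which PAG11 belongs.

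The libraries held between 14651477 and 19467022 reads in the table, the fewest in low cryosurvival library 2. Values are CPM, that is, reads scaled to a common library size. Low library 2 stood apart from the other 5 on the first principal component, which carried 61.1% of the variance, at 46.7 against -21.2 to 3.01. The reads of low library 2 summed to 1100411 CPM, against 960647 to 995602 CPM in the others. Values without this library are given beside several of the results it moves. The labelled stage was checked against markers of its lineages, and the trophectoderm keratins KRT8 and KRT18 and the pluripotency factor POU5F1 had values in all 6 libraries, with means of at least 732 CPM in each group.

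Embryos of low cryosurvival had less GCM1, TFAP2A, DAB2 and GATA2 messenger RNA and more PAG11 than embryos of high cryosurvival. GCM1 was at 9.16 ± 0.694 CPM in the low and 17.0 ± 2.58 CPM in the high group (SD, n = 3 each), and PAG11 at 6.90 ± 1.33 against 3.80 ± 0.945 CPM. GATA3 and CDX2 had overlapping groups, and TFAP2C differed by little. In all, 7 of the 8 genes had a lower mean log2 level in low cryosurvival, beside 50% of all genes, and 1 had a higher one. The groups did not overlap in 6 of the 8 genes, 5 lower and 1 higher in low, beside 21% of all genes of the table without overlap (10.6% lower and 10.4% higher). Limma called 0 of the 8 genes at an adjusted p of 0.05, beside 0% of all genes. Without low library 2 it called 2 of the 8, GCM1 and GATA2, beside 13.6% of all genes. At an unadjusted p of 0.05, 5 of the 8 genes passed limma, beside 12% of all genes. With voom on the recovered reads, 0 of the 8 were called, beside 0 of all 9537 genes. The authors' deposited table called GCM1 alone of the 8, beside 1.2% of all genes (0.283% lower and 0.912% higher in low).

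**Figure D1:**
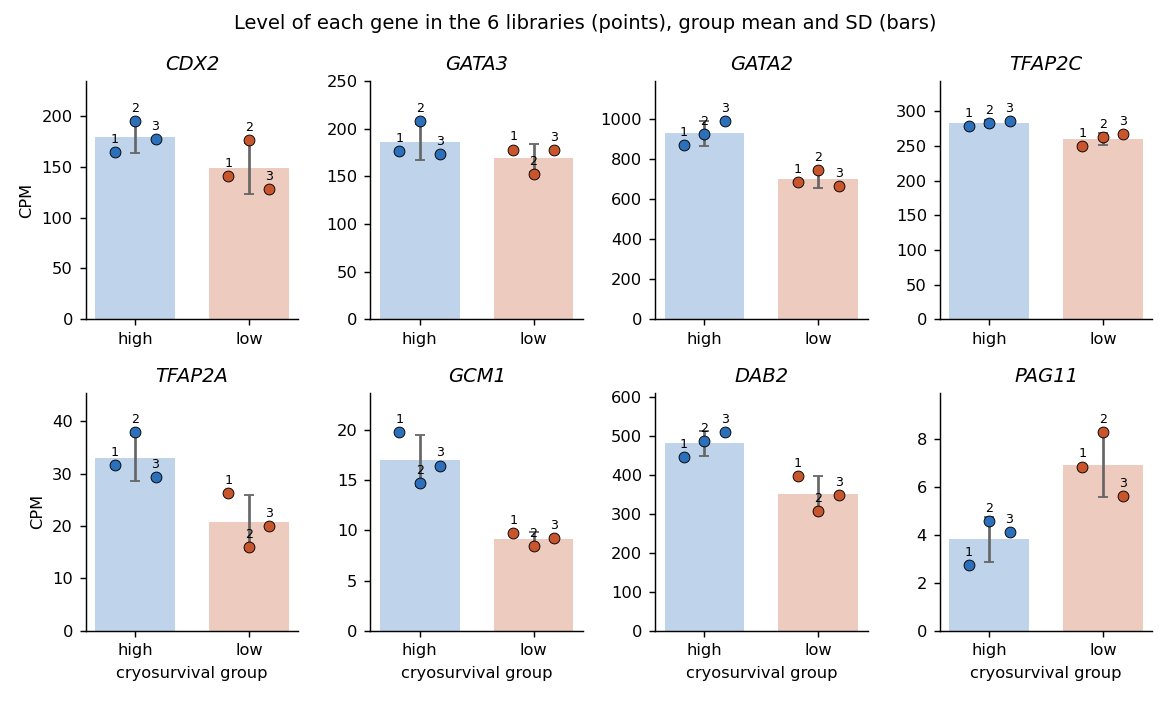
Levels in CPM (vertical axes, each starting at 0) of the 8 genes in high and low cryosurvival blastocysts. Points are the 6 libraries, numbered by replicate, bars are group means and whiskers SD; GCM1 lies between 14.7 and 19.8 CPM in high and between 8.41 and 9.79 CPM in low, while the GATA3 and CDX2 groups overlap.

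In the mouse, the caudal-type homeobox factor CDX2 maintains the trophectoderm programme and represses pluripotency genes. CDX2 was at 165, 196 and 178 CPM in high libraries 1, 2 and 3 and at 141, 177 and 128 CPM in low libraries 1, 2 and 3. Low library 2 lay among the high libraries, and the other 2 low libraries lay below all 3. The mean of CDX2 was 149 ± 25.4 CPM in the low and 179 ± 15.5 CPM in the high group, a log2 difference of -0.28 (SE 0.16) on the log2(CPM + 1) scale, low minus high. Without low library 2 this difference of CDX2 was -0.41, and without low library 3 it was -0.18.

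The zinc finger factors GATA2 and GATA3 bind the same core motif and are both expressed in trophoblast. GATA2 was at 868, 927 and 992 CPM in high libraries 1, 2 and 3 and at 686, 746 and 664 CPM in low libraries 1, 2 and 3. The groups were separated by 123 CPM, and the mean was 699 ± 42.2 CPM in low against 929 ± 61.8 CPM in high. The log2 difference of GATA2 was -0.41 (SE 0.12), a low over high ratio of 0.752. Leaving out single libraries gave -0.46 to -0.36. Each GATA2 value rested on 9927 to 17886 reads, so counting error was small beside the spread between libraries, at 0.768% on average in high libraries against an SD of 6.65% of the mean.

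GATA3, which acts early in the trophectoderm and later in placental hormone genes, was at 176, 208 and 174 CPM in high and at 178, 153 and 178 CPM in low libraries 1, 2 and 3. Low libraries 1 and 3 lay inside the range of the high libraries, and low library 2 lay below it. The means of GATA3 were 170 ± 14.7 and 186 ± 19.3 CPM, and the log2 difference was -0.13 (SE 0.14). It was -0.06 without low library 2. The ratio of GATA2 to GATA3 in the same library, in which gene length cancels between libraries, was 4.92, 4.45 and 5.71 in high and 3.85, 4.89 and 3.73 in low libraries 1, 2 and 3. These ratios overlapped through low library 2, and whether the paralogs differed from each other in their response was not tested.

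AP-2 alpha and AP-2 gamma, encoded by TFAP2A and TFAP2C, are paralogous activators of trophoblast genes, and AP-2 gamma is needed for trophoblast development in the mouse. TFAP2A was at 31.7, 37.9 and 29.4 CPM in high libraries 1, 2 and 3 and at 26.3, 15.9 and 19.9 CPM in low libraries 1, 2 and 3. The groups were 3.13 CPM apart, and the low libraries were the more spread, with low library 2 the lowest. The mean of TFAP2A was 20.7 ± 5.21 CPM in the low and 33.0 ± 4.38 CPM in the high group, a ratio of 0.628, and the log2 difference was -0.67 (SE 0.20). It was -0.50 without low library 2 and -0.84 without low library 1.

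TFAP2C was the steadiest of the 8 genes between libraries. It was at 278, 283 and 286 CPM in high libraries 1, 2 and 3 and at 250, 262 and 267 CPM in low libraries 1, 2 and 3. The groups did not overlap, yet the means of 260 ± 8.81 and 283 ± 4.09 CPM gave a ratio of 0.92 and a log2 difference of -0.12 (SE 0.11). In the high libraries the SD of TFAP2C was 1.45% of the mean, close to the 1.39% that counting its 4968 to 5405 reads gives alone. The ratio of TFAP2A to TFAP2C was 0.114, 0.134 and 0.103 in high and 0.105, 0.0607 and 0.0746 in low libraries 1, 2 and 3. The ratio of low library 1 lay just inside the high range, and those of low libraries 2 and 3 lay below it.

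The glial cells missing factor GCM1 drives trophoblast cell cycle exit and fusion in the mouse and human placenta. GCM1 was at 19.8, 14.7 and 16.5 CPM in high libraries 1, 2 and 3 and at 9.79, 8.41 and 9.27 CPM in low libraries 1, 2 and 3. The 3 low libraries lay close together and 4.90 CPM below the lowest high library. The low over high ratio of GCM1 was 0.539 and the log2 difference -0.82 (SE 0.15). Leaving out single libraries gave -0.91 to -0.71. In the authors' deposited table GCM1 had a log2 fold of 0.89 for high over low and an adjusted p of 0.049, just inside the 0.05 at which that table's calls were counted. Each library held between 112 and 353 GCM1 reads, and the SD of the low libraries, 7.58% of the mean, was no larger than the 8.04% that counting alone gives. The ratio of GCM1 to TFAP2C was 0.0711, 0.0518 and 0.0575 in high and 0.0391, 0.0321 and 0.0347 in low libraries 1, 2 and 3, without overlap. GCM1 to GATA2 gave 0.0228, 0.0158 and 0.0166 in high and 0.0143, 0.0113 and 0.0140 in low, also without overlap.

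DAB2 is a clathrin adaptor that sorts cell surface receptors into endocytic vesicles and is made in trophectoderm and extraembryonic endoderm. DAB2 was at 445, 488 and 509 CPM in high libraries 1, 2 and 3 and at 398, 308 and 349 CPM in low libraries 1, 2 and 3. The groups were 47.1 CPM apart, with low library 2 the lowest. The mean of DAB2 was 352 ± 45.3 CPM in the low and 481 ± 32.6 CPM in the high group, a ratio of 0.731. The log2 difference was -0.46 (SE 0.14), and -0.36 without low library 2.

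PAG11 belongs to the pregnancy-associated glycoproteins, secreted relatives of pepsin made by the trophoblast of ruminants. It was the single gene of the 8 with more messenger RNA in low cryosurvival, at 2.75, 4.56 and 4.10 CPM in high libraries 1, 2 and 3 and at 6.84, 8.26 and 5.60 CPM in low libraries 1, 2 and 3. The groups were 1.04 CPM apart, and low library 2 was the highest. The low over high ratio of PAG11 was 1.81 and the log2 difference 0.72 (SE 0.20), or 0.60 without low library 2. These values rested on 49 to 137 reads per library, for which counting alone gives an error of 12.2% on average in high and 9.25% in low libraries. PAG11 has many close paralogs whose reads may be assigned to it or taken from it, so its level is uncertain. PAG2, the other glycoprotein of this family that was measured, was at 327, 347 and 438 CPM in high and 339, 431 and 340 CPM in low libraries 1, 2 and 3, with overlapping groups and a log2 difference of -0.0007.

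**Figure D2:**
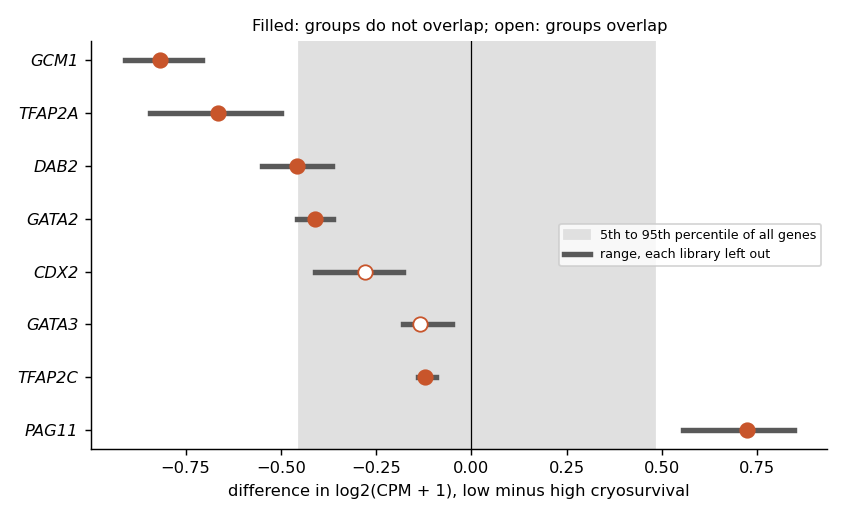
Difference in log2(CPM + 1), low minus high cryosurvival (horizontal axis), of each gene (points), with the range when each library is left out (dark lines) and the 5th to 95th percentile of all 9537 genes (grey band, -0.45 to 0.48). GCM1, TFAP2A and, by a small margin, DAB2 lie below the band and PAG11 lies above it; filled points mark genes whose groups do not overlap.

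The 3 low cryosurvival libraries shared the direction in the 7 genes other than PAG11. Against the mean of the high libraries, all 7 were below 0 in each low library, with medians of -0.31, -0.32 and -0.48 in low libraries 1, 2 and 3. They differed in which gene deviated most. In low library 2 it was TFAP2A, at -0.998, followed by GCM1 at -0.92, while CDX2 was at -0.02. In low library 3 it was GCM1 at -0.80, and CDX2 there was at -0.48. In low library 1 GCM1 was again the furthest, at -0.73, and TFAP2A was at -0.31. The high libraries stayed within -0.19 to 0.22 of their mean in these 7 genes. GCM1 was thus far below the high mean in each low library, whereas TFAP2A and CDX2 varied between the low libraries. In whole embryos, fewer cells of a lineage and less RNA per cell cannot be told apart.

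**Figure D3:**
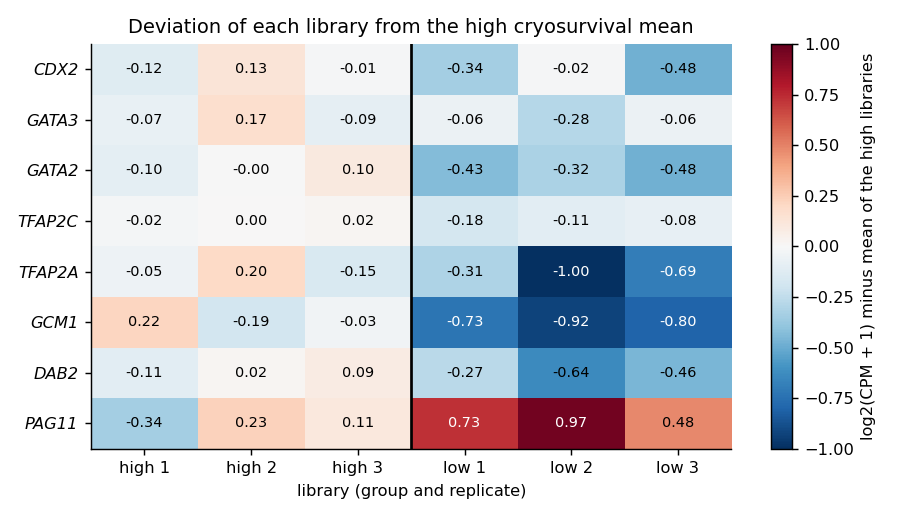
Deviation of each library (columns) from the mean of the 3 high cryosurvival libraries for each gene (rows), as a difference in log2(CPM + 1), blue below and red above. The 7 genes above PAG11 are below 0 in each of the 3 low libraries, and PAG11 is at 0.73, 0.97 and 0.48.

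Other genes of the trophoblast programme did not share a single direction. Of 22 further trophoblast transcription factors listed, 16 were measured, 8 with a higher and 8 with a lower mean log2 level in low cryosurvival, and the median log2 difference was 0.007 beside 0.0002 over all genes. The median rested on single libraries, at -0.04 without low library 1, 0.06 without low library 2 and 0.12 without low library 3. Limma called 0 of them, and 4 of the 16 had an unadjusted p under 0.05, beside 12% of all genes. The groups did not overlap in 7, with 4 lower and 3 higher in low, beside 10.6% and 10.4% of all genes. The Krüppel-like factor KLF5, a regulator of trophectoderm and inner cell mass, was at 578, 547 and 558 CPM in high and 493, 432 and 505 CPM in low libraries 1, 2 and 3. The grainyhead factor GRHL1, an epithelial regulator, was at 332, 331 and 357 CPM in high and 293, 204 and 277 CPM in low libraries. In both genes all low libraries lay below all high ones. Named after their values were seen, the other 5 genes without overlap went both ways. The homeobox factor MSX2 was at 128 ± 25.4 CPM in the low and 173 ± 12.5 CPM in the high group, and HAND1, a factor of trophoblast giant cells in the mouse, was at 11.8 ± 3.63 against 15.3 ± 0.290 CPM. OVOL1, a zinc finger factor of trophoblast maturation, was at 45.9 ± 3.20 against 32.9 ± 3.02 CPM and DLX3, a placental homeobox factor, at 40.2 ± 4.78 against 30.2 ± 4.60 CPM. ETS2, a trophoblast factor of the ETS family, was at 55.2 ± 6.76 against 46.1 ± 3.27 CPM. Thus MSX2 and HAND1 were lower and OVOL1, DLX3 and ETS2 higher in the low group.

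Of 29 listed paralogs of the 8 genes and TEAD4, 5 were measured. Limma called 0 of them, with 2 at an unadjusted p under 0.05, beside 12% of all genes. The groups did not overlap in 2, higher in low, beside 10.4% of all genes. TEAD2, a DNA-binding partner of YAP1 like TEAD4, was at 28.1, 29.0 and 33.7 CPM in high and 45.8, 44.0 and 40.3 CPM in low libraries 1, 2 and 3, without overlap. GATA4, a hypoblast factor, was at 11.1 ± 1.10 CPM in the low and 7.82 ± 1.75 CPM in the high group, also without overlap, and was named after its values were seen. Also named after their values were seen, GATA5 was at 8.89 ± 0.605 against 10.6 ± 1.96 CPM and TFAP2B at 1.64 ± 1.09 against 1.71 ± 0.341 CPM, both with overlapping groups.

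Hippo pathway genes and partners of TEAD factors had higher mean log2 levels in low cryosurvival in 14 of the 15 measured of 24 listed, with a median log2 difference of 0.22. Over all genes, 50% were lower in low. Limma called 0 of the 15 and 4 had an unadjusted p under 0.05, beside 12% of all genes. The groups did not overlap in 5, all higher in low, beside 10.4% of all genes. The authors' deposited table called a single member, beside 1.2% of all genes. That gene was CTGF, a matricellular protein and a classic target of YAP1 and TEAD factors. CTGF was at 52.3, 50.5 and 49.6 CPM in high and at 87.1, 97.0 and 90.3 CPM in low libraries 1, 2 and 3. CYR61, a target of the same factors, was at 91.3, 75.0 and 82.5 CPM in high and 122, 112 and 103 CPM in low libraries. VGLL4, a competitor of YAP1 for TEAD binding named after its values were seen, was at 82.9 ± 2.02 CPM in the low and 51.2 ± 5.47 CPM in the high group. All 3 low libraries lay above all 3 high ones in each of these 3 genes. The summed level of the 15 genes was 372 to 410 CPM in high and 465 to 586 CPM in low libraries. The median rested on single libraries, since it was -0.005 without low library 1 and 0.48 without low library 2. AMOT, a Hippo scaffold named after its values were seen, was at 76.4, 16.0 and 52.5 CPM in low libraries 1, 2 and 3 against 28.8 to 42.4 CPM in high.

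Cofactors of GATA and AP-2 factors were split, with 5 of the 10 measured of 15 listed higher and 5 lower and a median log2 difference of 0.003 (-0.06 to 0.03 with single libraries left out). Limma called 0, and 2 had an unadjusted p under 0.05, beside 12% of all genes. The groups did not overlap in 1 lower and 1 higher member, beside 10.6% and 10.4% of all genes. The chromatin remodeller SMARCA4 was at 238 ± 35.2 CPM in the low and 214 ± 12.8 CPM in the high group, and the acetyltransferase CREBBP at 138 ± 64.7 against 140 ± 15.5 CPM. LMO4, a LIM-domain adaptor named after its values were seen, was at 35.1, 34.7 and 36.0 CPM in high and at 49.4, 81.8 and 50.7 CPM in low libraries 1, 2 and 3, without overlap. KCTD15, also named after its values were seen, was at 108 ± 15.8 CPM in the low and 140 ± 4.05 CPM in the high group, without overlap.

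The endocytic partners of DAB2 showed no shared difference. Of 24 listed, 19 were measured, 10 higher and 9 lower in low, with a median log2 difference of 0.02 (-0.03 to 0.04 with single libraries left out). Limma called 0, with 0 at an unadjusted p under 0.05, beside 12% of all genes. The groups overlapped in all 19, beside 21% of all genes without overlap. The clathrin adaptor subunit AP2M1 was at 1225 ± 64.5 CPM in the low and 1194 ± 49.9 CPM in the high group, and the clathrin light chain CLTA at 954 ± 201 against 901 ± 10.4 CPM. The low libraries were widely spread for CLTA, so only a large difference would have stood out from them.

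Trophoblast products and genes of cell fusion, which include targets of GCM1 in other species, were measured for 11 of 29 listed. Of these, 8 were higher and 3 lower in low, with a median log2 difference of 0.06, which was -0.01 without low library 1 and up to 0.14 without others (0.12 without low library 2). Limma called 0, with 3 of the 11 at an unadjusted p under 0.05, beside 12% of all genes. PTGS2, the prostaglandin synthase, was at 1083 ± 141 CPM in the low and 1032 ± 89.3 CPM in the high group, and PLAC8 at 488 ± 187 against 458 ± 46.7 CPM. The groups did not overlap in 3 genes, named after their values were seen, beside 21% of all genes (10.4% higher in low). The amino acid transporter SLC1A5, which is the syncytin receptor of human cells, was at 80.3, 79.1 and 70.3 CPM in high and at 120, 110 and 121 CPM in low libraries 1, 2 and 3. The lipid transporter MFSD2A, also a syncytin receptor in human cells, was at 4.49 ± 1.17 CPM in the low and 2.36 ± 0.824 CPM in the high group. TKDP1, a ruminant trophoblast Kunitz protein, was at 14.4 ± 0.930 against 10.6 ± 0.346 CPM. All 3 were higher in low.

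**Figure D4:**
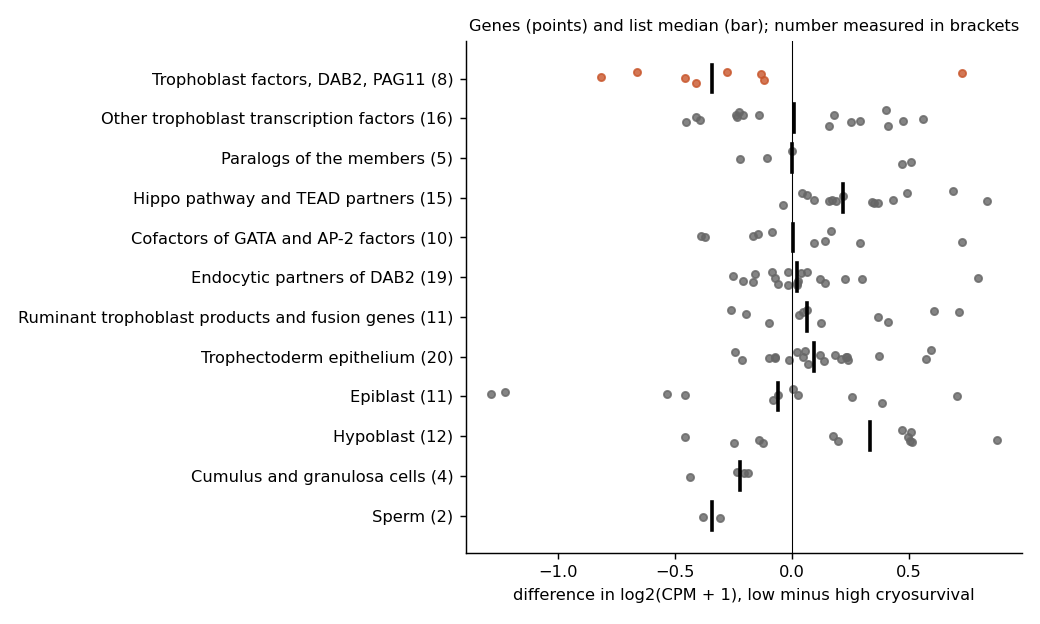
Differences in log2(CPM + 1), low minus high cryosurvival (horizontal axis), of the 8 genes described here (orange) and of 11 lists of other genes (grey), with the median of each (black bar) and the number measured in brackets. The other trophoblast factors centre on 0.007 and the Hippo list on 0.22; the vertical scatter within a row carries no value.

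Markers of the lineages that a blastocyst holds were set beside these results. Genes of the trophectoderm epithelium had 14 of 20 measured members higher in low (21 listed). Limma called 0 of them, with 1 at an unadjusted p under 0.05, beside 12% of all genes. The median log2 difference was 0.09. This median was 0.19 without low library 2 or without high library 2, 0.01 without low library 1 and -0.01 without high library 3. Their summed level was 41526 to 46089 CPM in high and 38321 to 49900 CPM in low libraries, so the groups overlapped. KRT8 was at 18187 ± 3271 CPM in the low and 18212 ± 1044 CPM in the high group, and KRT18 at 11185 ± 1845 against 13197 ± 1410 CPM. The groups overlapped for both keratins. The groups did not overlap in 1 of the 20 members, higher in low, beside 10.4% of all genes. That gene was CLDN4, a tight junction claudin named after its values were seen, at 1249 ± 161 CPM in the low and 841 ± 120 CPM in the high group.

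Epiblast markers had 5 of 11 measured members higher in low (18 listed), a median log2 difference of -0.06, which went from -0.19 without low library 1 to 0.05 without high library 1, and a summed level of 1424 to 1568 CPM in high and 1322 to 1420 CPM in low libraries. POU5F1 was at 745 ± 166 CPM in the low and 732 ± 39.9 CPM in the high group, and the methyltransferase DNMT3B at 275 ± 136 against 358 ± 21.5 CPM. Limma called 0, and 3 had an unadjusted p under 0.05, beside 12% of all genes. The authors' deposited table called 2 of the 11, NANOG and LEFTY2, both lower in low, beside 0.283% of all genes called in that direction. NANOG, like LEFTY2 named after its values were seen, was at 47.3, 31.1 and 37.6 CPM in high and 22.1, 12.2 and 14.3 CPM in low libraries 1, 2 and 3. This pluripotency factor thus had the same direction as GCM1 and TFAP2A. The groups did not overlap in 2 lower members, NANOG and LEFTY2, and 1 higher, beside 10.6% and 10.4% of all genes. The higher one, ETV5, also named after its values were seen, was at 4.12 ± 1.86 CPM in low against 2.03 ± 0.323 CPM in high.

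Hypoblast markers had 8 of 12 measured members higher in low (16 listed). The median log2 difference was 0.33 (0.16 without low library 2 and 0.19 without high library 3). Limma called 0 of them, with 4 at an unadjusted p under 0.05, beside 12% of all genes. The summed level of the 12 was 3736 to 4535 CPM in high and 3678 to 4738 CPM in low libraries. Fibronectin, FN1, was at 2079 ± 728 CPM in the low and 2173 ± 328 CPM in the high group, and the protease CTSV at 1503 ± 162 against 1327 ± 74.8 CPM. The groups did not overlap in 3 members higher and 1 lower in low, beside 10.4% and 10.6% of all genes. The higher ones were GATA4, RSPO3 and BMP2. Named after their values were seen, RSPO3 was at 10.7 ± 2.61 against 5.33 ± 0.907 CPM and BMP2 at 5.70 ± 0.579 against 3.72 ± 0.367 CPM. HNF4A, the lower one and named likewise, was at 53.2 ± 11.6 against 72.8 ± 10.5 CPM. DAB2 is also made in hypoblast, and it was lower in the low group.

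Genes listed as markers of cells that can cling to embryos made in vitro were looked at too. Of 13 genes listed for cumulus and granulosa cells, 4 were measured, all 4 lower in low. Their median log2 difference was -0.22 (-0.34 to -0.16 with single libraries left out). The groups did not overlap in 1 of the 4, lower in low, beside 10.6% of all genes. That gene was FSHR, named after its values were seen, at 7.51 ± 0.561 CPM in the low and 8.81 ± 0.211 CPM in the high group. The summed level of the 4 genes was 243 to 297 CPM in high and 168 to 261 CPM in low libraries. The steroid enzyme CYP17A1, at 181 ± 46.8 against 241 ± 25.9 CPM, made up most of this sum, and STAR was at 18.3 ± 2.71 against 20.9 ± 1.89 CPM. The sum thus followed CYP17A1, and whether its RNA came from cumulus or granulosa cells was not tested. Of 8 genes listed for sperm, 2 were measured, TNP1 at 1.83 ± 0.900 against 2.46 ± 0.749 CPM and ODF2 at 51.0 ± 21.7 against 61.9 ± 2.03 CPM. Whether this RNA came from sperm was not tested. Limma called 0 genes of either list, with 0 at an unadjusted p under 0.05, beside 12% of all genes. No measured marker of any of these 5 lists was at 0 in a library. The part of these cell types in the differences of the 8 genes was not tested.

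The genes whose levels followed 4 of the 8 most closely were found by Pearson's r of log2(CPM + 1) over the 6 libraries, among 7946 other genes with a mean of at least 5 CPM. With so few libraries in 2 groups a high r is common: 62 genes had an r above 0.95 with GATA2, 44 with TFAP2A, 76 with DAB2 and 34 with PAG11. The values are descriptions, and the libraries share their groups and depth. The closest to GATA2 were the GABA receptor subunit GABRD (r = 0.998), PRPSAP2 (0.995) and the glutathione transferase MGST1 (0.992). TFAP2A was followed by the actin regulator EPS8L1 (0.995), the DNA methyltransferase DNMT3A (0.994) and the integrin activator FERMT2 (0.991). DAB2 was followed by SH2D3A, the kinase ARAF and SH3D21 (each 0.997). PAG11 was followed by the ephrin EFNA1 (0.998), the vesicle coat GTPase SAR1A (0.982) and DLX3 (0.981). EFNA1 was at 30.8 ± 5.12 CPM in the low and 19.5 ± 3.34 CPM in the high group. Spearman's rho was 1 for all 12 of these pairs. Without low library 2, r was between 0.970 and 0.999, and the order changed: EFNA1 was first for PAG11, but GABRD was rank 3 for GATA2, EPS8L1 rank 11 for TFAP2A, SH2D3A rank 7 for DAB2, MGST1 rank 29 for GATA2 and SAR1A rank 37 for PAG11.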

How the data were processed

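The deposited table held, per gene and library, CPM of a scaled library size, and the authors' log2 fold, p-value and adjusted p-value. The unit was worked out from the values and the header: up to 1000 CPM, 100% of values were whole multiples of 1 read per library (0.0499 to 0.0751 CPM) within 0.05 read. Per the submitters' processing notes the tools were DESeq 1.12.1, HTSeq 0.5.4p2, TopHat2 2.0.8, SAMtools 0.1.18, Bowtie2 2.1.0 and Cufflinks 2.1.1, with no role stated. The build, annotation, use of strand and filter were not given in the sources used here; coordinates are left out, and reads of overlapping genes were not told apart. The lowest mean in the table was 0.737 CPM. RNA had an integrity number of at least 7.7, per the labels' protocols. The deposited fold is high over low; differences here are low minus high.

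The groups were compared with limma 3.58.1 (R 4.3.3) on log2(CPM + 1) over all 9537 genes and 6 libraries, without covariate, two-sided, with Benjamini-Hochberg adjustment. The fit was also run on simulated counts with the same spread for every gene and no outlying library. That run does not show which differences the fit would miss in these libraries. The pseudocount understates the change of low genes. An exact permutation test of 3 against 3 cannot give a p under 0.1, so none was made. The genes and lists were chosen with earlier results of these data known. Genes named from a list were its 2 most highly expressed and up to 4 called by limma (there were 0); others are marked as chosen after their values were seen. The alternatives were other pseudocounts, a filter at 5 CPM, other scalings, limma with a trend or library weights, the replicate number as a block, each library left out and, chosen after seeing the data, voom and plain CPM. Count tests other than voom were not run. Transcript lengths and sequences were not used here, so levels are not ordered between genes, no promoter motifs were counted and no length index was fitted. No libraries were identical.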

Additional observations from a re-analysis of the deposited data

How the results depend on the processing

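Each of the 8 genes kept its direction in all 13 alternatives run on it, but not every alternative could change it. With 1 library of each group per replicate number, the replicate block leaves each difference as it was. TMM factors gave nearly the values of the main fit, with GCM1 at -0.8166 against -0.8165. With each library left out, the log2 differences (low minus high) ranged from -0.41 to -0.18 for CDX2, -0.18 to -0.05 for GATA3, -0.46 to -0.36 for GATA2, -0.14 to -0.09 for TFAP2C, -0.84 to -0.50 for TFAP2A, -0.91 to -0.71 for GCM1, -0.55 to -0.36 for DAB2 and 0.55 to 0.85 for PAG11. Of 104 alternative values, 1 moved by more than the SD between replicates: with library weights the log2 difference of TFAP2C was -0.0736. The 104 include those of the block and the TMM factors, and this rule is lenient where the SD is wide. For GATA3 the SD was 0.136 beside a difference of -0.134, so -0.05 without high library 2 did not count as moved. The count of genes called by limma over the table was 0 to 1300 with each library left out. The 1300 came without low cryosurvival library 2 (13.6% of all genes) and included 2 of the 8, GCM1 and GATA2. The count was 10 at a pseudocount of 0.5, 7 at 0.1, 7 with a mean of at least 5 CPM, 114 in the authors' deposited table and 4366 with library weights, whose estimate did not converge; the cause was not tested. With library weights 6 of the 8 were among the calls, all but GATA3 and TFAP2C, beside 4366 of all 9537 genes. The weights were 14.6 for low library 3, 0.504 for low library 1 and 0.0592 for low library 2. The low group thus rested mostly on low library 3 in that fit. Limma with TMM factors, plain CPM, a trend or the block, and voom, called 0 genes, with 797 to 1142 at an unadjusted p of 0.05. The replicate block called 0 genes, as the main fit did, with 797 against 1142 at an unadjusted p of 0.05. Its GCM1 difference of -0.82 could not differ from that of the main fit. Deviations of same-numbered libraries from their group means correlated at 0.12, -0.26 and -0.31. Differently numbered ones reached -0.36 (high 3 with low 1) and 0.37 (high 3 with low 2). With low library 2 standing apart, these values cannot tell whether the numbers pair the libraries. Count tests by edgeR and DESeq2, the length index and the order of levels per kilobase were not run. At 49 to 137 reads, PAG11 is the gene whose level depth limits most.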
